A study of Mus musculus with 4 samples.

Results

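Gene expression of mouse cells labelled Primary neuron was set against that of mouse cells labelled Fibroblast, with 1 Illumina BeadChip array on each side. All genes whose probe had a detection p-value under 0.01 on at least 1 of these 2 arrays were compared, which gave 8987 of the 16593 genes with a probe, while 9184 genes were detected on at least 1 of the 4 arrays of the study. The other 2 arrays carried RNA of cells labelled APNL and APNL+AuEMF, and the study concerns direct conversion of cells into dopamine neurons with the aid of an electromagnetic field. APNL and AuEMF are not explained in the labels, which give neither the brain region, age or strain behind the primary neurons, nor the origin of the fibroblasts, nor a culture time or treatment for either. Because each side is 1 array, differences have no replicate check and no test was made. Values are levels, in log2 of background-corrected and quantile-normalized intensity, or differences, always Primary neuron minus Fibroblast on the log2 scale.

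Neurons and fibroblasts stand at opposite ends of many gene programmes. Neurons are cells that no longer divide, grow axons along tracks of tubulin, and release transmitter from vesicles. Fibroblasts are dividing connective tissue cells that secrete and crosslink collagen and grip it through integrins. Many neuronal genes have a widely expressed paralogue that does the corresponding job in other cells, and the repressor REST, which binds the RE1 element, keeps a set of neuronal genes silent outside the nervous system.

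On the primary neuron array 12287 probes (47.8%) were detected, against 10643 (41.4%) on the fibroblast array, and the median raw intensity was 207 against 169. The lowest detected level was 6.36 on the neuron array and 7.13 on the fibroblast array. Of the compared genes, 7588 were detected on both arrays, 1140 on the neuron array only and 259 on the fibroblast array only. A gene detected on 1 array has only a bound, for which the other array is set to its lowest detected level, or to the gene's own level there where that is higher. It is written as "at least". A gene detected on 1 array can therefore be called only to the side of that array. List counts of 0 on the other side are in part fixed by this rule. Levels over the 8987 genes correlated with a Pearson r of 0.844 across genes, which are not independent replicates and come from the same 2 arrays.

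Primary neurons had 991 genes at a 2-fold or higher level (11.0% of those compared) and 1337 genes at a level lower by 2-fold or more (14.9%). The median difference over all compared genes was -0.10, and the quartiles were -0.67 and 0.38. The balance turned with the size of the difference. Among genes at least 8-fold apart 181 were higher and 60 lower, and among genes at least 32-fold apart 21 were higher and 3 lower. Larger differences therefore lay mostly on the neuronal side and small ones on the fibroblast side. Of all called genes 42.6% were higher, against 52.0% when arrays were scaled on the probes detected on all 4 arrays and 36.8% when they were scaled on all probes, a scaling that also moved the median of all genes by -0.13. Of the called genes, 515 had another detected probe. Every other probe was at least 2-fold apart in the same direction for 324 of them, and for 54 at least 1 other probe had the opposite sign.

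**Figure D1:**
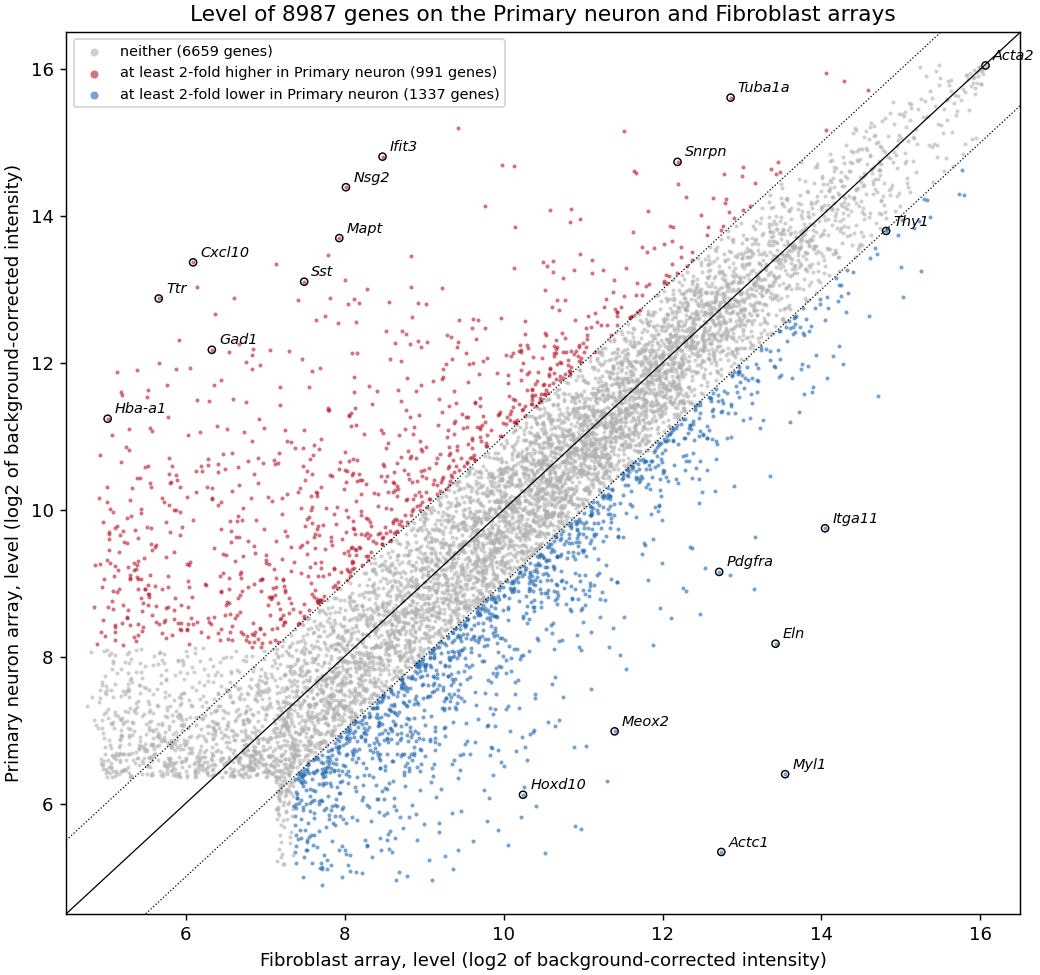
Level of the 8987 compared genes on the Primary neuron array (vertical axis) and the Fibroblast array (horizontal axis), in log2 of background-corrected intensity. Each point is 1 gene, coloured by whether it was at least 2-fold higher (991) or lower (1337) in primary neurons; the solid line marks equal levels, the dotted lines a 2-fold difference, and genes with grey points left of the detected range have bounds under 2-fold.

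The names of the samples were checked against marker lists. Of 33 pan-neuronal genes with a probe, 31 were detected on the neuron array and 19 on the fibroblast array. Among the 31 compared, 26 were at least 2-fold higher and 2 lower, with a median difference of 3.38 (bounds included) against -0.07 over all compared genes at their bounds. Nsg2, a neuronal endosomal sorting protein, had a level of 14.39 in primary neurons and 8.02 in fibroblasts, an 82.9-fold difference. Dcx, the microtubule protein of young neurons, had levels of 13.47 and 7.79 on the neuron and fibroblast arrays. Stmn2, a growth cone stathmin, had 14.13 and 9.76 in the same order. The neuron array thus carried a broad neuronal programme, and some of its genes were detected in fibroblasts as well. Thy1 was lower, with 13.80 in primary neurons against 14.81 in fibroblasts, and it is a surface protein of many fibroblasts as well as of neurons. Ncam1 was lower by one probe (-2.41) and by less than 2-fold by its other detected probe (-0.67). The mature neuron genes Snap25 and Nefl were detected on neither array, and Tubb3, the tubulin most used to stain neurons, was detected on the neuron array only, too close to the detection limit to give a fold.

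Fibroblast identity genes pointed the other way. Of 35 compared, 0 were at least 2-fold higher and 30 were lower in primary neurons, with a median difference of -1.84. Meox2, a mesenchymal homeobox factor, had 6.98 in primary neurons against 11.40 in fibroblasts, a 21.3-fold difference. Pdgfra, the receptor for platelet-derived growth factor, had 9.15 and 12.71 on the neuron and fibroblast arrays. Mfap4, a protein of elastic microfibrils, had 8.59 and 12.47 in the same order. Fibroblast transcripts were nonetheless present on the neuron array: 29 of the 35 were detected there, at a median of 30.2% of their fibroblast level. Vim (14.22 in primary neurons against 13.56 in fibroblasts) and S100a4 (11.03 against 10.99) differed by less than 2-fold. In RNA of whole cultures, fewer cells of a type and less RNA per cell cannot be told apart.

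The fibroblast array also carried muscle. Of 79 skeletal and cardiac muscle genes with a probe, 17 were detected on the neuron array and 39 on the fibroblast array, and the summed level of the list was 10132 in primary neurons against 63410 in fibroblasts on the linear scale. Of the 39 compared genes 32 were at least 2-fold lower in primary neurons and 0 higher, with a median of -2.17. Of these 39, 22 were detected in fibroblasts only and could not be called higher. Myl1, a fast muscle myosin light chain, differed more than any other gene that both arrays detected, at 6.40 in primary neurons and 13.54 in fibroblasts, or 141-fold. Its neuron level lay close to the lowest detected level of that array, 6.36, so the size of this fold is imprecise. Actc1, the actin of heart and embryonic muscle, was not detected in primary neurons and had 12.74 in fibroblasts, which makes it at least 83.1-fold lower. Nppa, the atrial natriuretic peptide, was not detected in primary neurons and had 11.30 in fibroblasts, a difference of at most -4.94. Cardiac Myl2 and Myl3, skeletal Acta1 (8.93 in primary neurons against 12.25 in fibroblasts) and the sarcoplasmic calcium pump Atp2a1 were lower as well. The myogenic regulators Myod1 and Myf5 were detected on neither array, and neither was the creatine kinase Ckm. The labels name no muscle, and the part of muscle cells in the fibroblast results was not tested.

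Some endplate genes of embryonic muscle were among those differences. Chrna1, the alpha subunit of the muscle acetylcholine receptor, had 7.11 in primary neurons and 10.56 in fibroblasts. Chrng, its embryonic gamma subunit, was not detected in primary neurons and had 8.78 in fibroblasts, and the beta subunit Chrnb1 had 9.14 and 10.54 on the neuron and fibroblast arrays. The neuronal receptor subunits Chrna4 (9.27 in primary neurons against 7.63 in fibroblasts) and Chrnb2 (8.92, not detected in fibroblasts) had the opposite sign. The muscle delta subunit Chrnd was detected on neither array. Promoter windows were searched for the E-box CAGCTG, a motif bound by MyoD-type factors, on both strands. Here and below a window runs from 250 bases before to 50 after the first-listed start of a gene in RefSeq's GRCm38.p6 table. The E-box was in 28.3% of the 46 windows of genes at least 8-fold lower, in 13.9% of 5481 windows of genes under 2-fold apart and in 16.1% of all 27025 windows, but also in 22.5% of the 138 windows of genes at least 8-fold higher. The stretches of Chrna1 (chr2:73580352-73580455, minus strand), Mylpf (chr7:127211532-127211587, plus strand) and Myl1 (chr1:66945250-66945305, minus strand) are shown because these muscle genes carry it, with the E-box in capitals and each sequence written along the gene's strand.
Chrna1: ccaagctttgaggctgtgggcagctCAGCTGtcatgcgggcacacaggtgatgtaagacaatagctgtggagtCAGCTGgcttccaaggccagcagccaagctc
Mylpf: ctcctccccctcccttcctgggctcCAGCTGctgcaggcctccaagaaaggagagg
Myl1: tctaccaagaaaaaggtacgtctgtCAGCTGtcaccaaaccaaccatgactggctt
Chrna1 held 2 matches, 92 and 44 bases before the start. Mylpf, a fast light chain that was 3.25 lower on the log2 scale, held 1 match. A match is a description of letters and was not tested as a binding site.

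Of 30 neuronal transcription factors compared, 16 were at least 2-fold higher and 4 lower. On both arrays 17 were detected, and 13 on the neuron array only. Insm1, a zinc finger factor of newborn neurons, had 11.90 in primary neurons and was at least 27.3-fold higher. Tbr1, a factor of deep cortical layers, had 11.02 and was at least 14.9-fold higher. Myt1l, a repressor of non-neuronal genes that is widely used to convert fibroblasts to neurons, had 10.85 in primary neurons and was not detected in fibroblasts. Zbtb18 and Bcl11a were detected on both arrays, with 13.30 and 11.98 in primary neurons against 10.14 and 9.57 in fibroblasts. Nfib did not separate the cells, with 12.38 in primary neurons against 12.37 in fibroblasts. Among 8 compared genes used in reprogramming recipes, Myt1l, Neurog2 and Sox2 were higher, Klf4 (9.58 in primary neurons against 10.78 in fibroblasts) and En1 (8.55 against 9.88) were lower, and the midbrain factors Nr4a2 (7.71 against 7.19) and Lmx1a (6.67, not detected in fibroblasts) differed by less than 2-fold or had a bound under it.

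Regional identity split the homeobox genes. Of 37 compared, 8 were at least 2-fold higher and 21 lower in primary neurons. Otx1, of the forebrain and midbrain, was not detected in fibroblasts and was at least 29.3-fold higher. Nkx2-1, of the ventral forebrain, had 10.18, and Otx2 had 10.16, both not detected in fibroblasts. Gbx2 had 10.85 in primary neurons against 7.38 in fibroblasts. Dlx1, a factor of forebrain interneurons, had 12.29 against 9.03. En1, of the midbrain-hindbrain boundary, was lower, at 8.55 in primary neurons against 9.88 in fibroblasts. Its paralogue En2 went the other way, at 9.10 in primary neurons and not detected in fibroblasts. Irx2 (8.68 against 10.38), Irx5 (8.83 against 10.28) and Meis1 (11.50 against 12.75) were lower, like En1. The other 17 lower genes were Hox genes. Hox genes, which mark positions of the trunk and limbs, were called in 1 direction. Of 36 Hox genes with a probe, 11 were detected in primary neurons and 19 in fibroblasts. Of the 19 compared 0 were at least 2-fold higher, 17 were lower, and their median difference was -1.79. Only the 11 detected in primary neurons could have been called higher. Hoxd10 was not detected in primary neurons and had 10.25 in fibroblasts, Hoxc10 had 7.05 in primary neurons against 10.65 in fibroblasts, and Hoxa5 had 7.56 against 11.10. All 4 clusters were involved, with 4 of 5 compared Hoxa genes lower, 5 of 6 Hoxb, 3 of 3 Hoxc and 5 of 5 Hoxd. Hoxb7 (8.91 in primary neurons against 9.31 in fibroblasts) and Hoxa13 (7.49 against 7.98) differed by less than 2-fold.

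**Figure D2:**
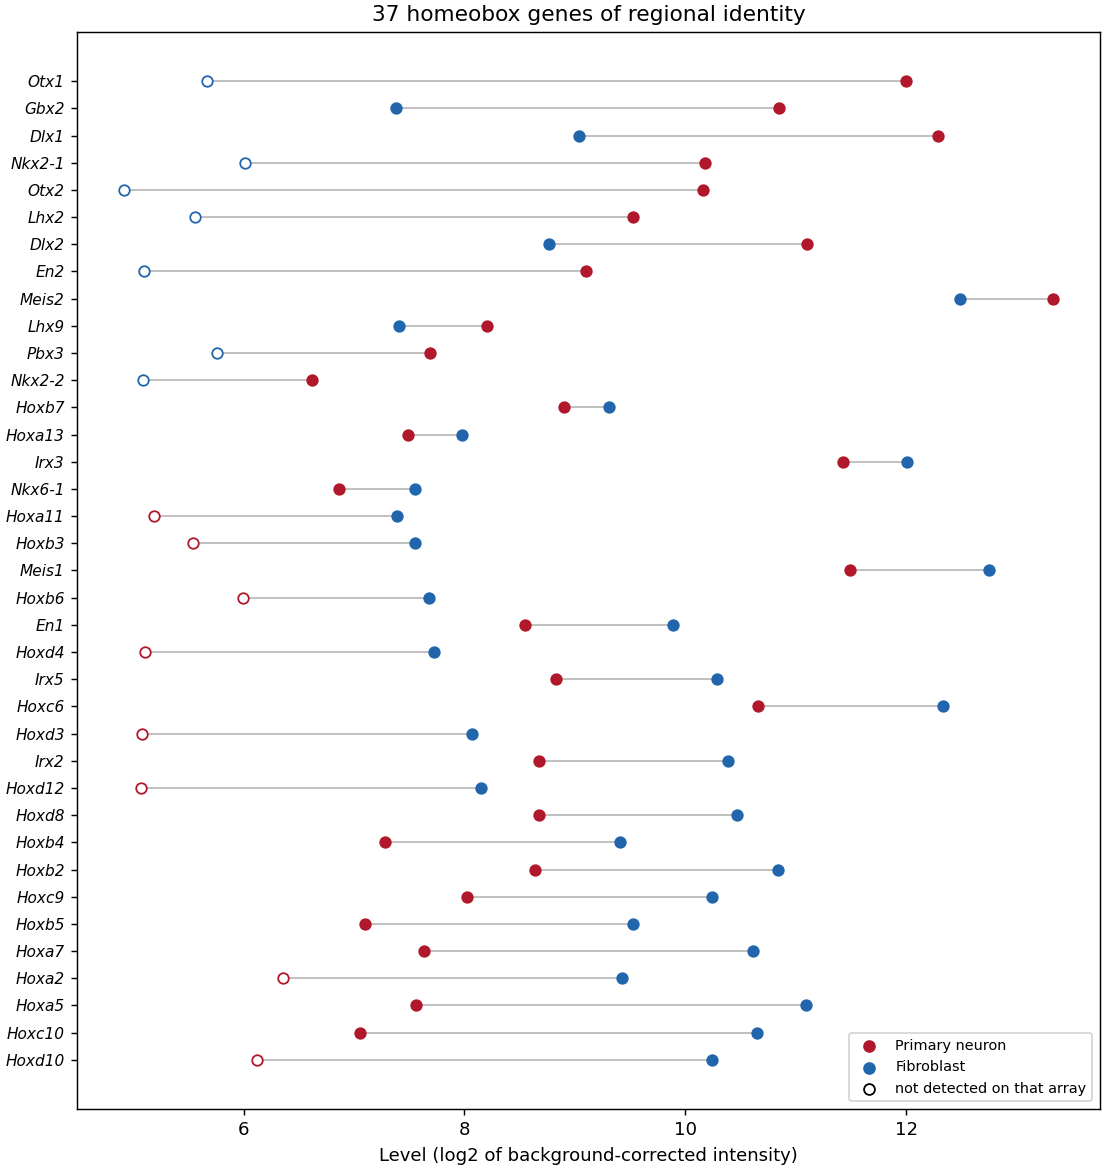
Levels of 37 homeobox genes on the Primary neuron array (red) and the Fibroblast array (blue), in log2 of background-corrected intensity, ordered by difference; open circles were not detected on that array. Otx1, Gbx2, Dlx1, Nkx2-1 and Otx2 lie farthest to the neuronal side at the top, and Hox genes make up most of the fibroblast side at the bottom.

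Markers of inhibitory and excitatory neurons were both present. Of 22 GABAergic interneuron genes compared 13 were at least 2-fold higher and 2 lower. Sst, the peptide somatostatin, had 13.10 in primary neurons and 7.49 in fibroblasts, and Gad1, which makes GABA, had 12.18 in primary neurons and was at least 33.1-fold higher. Slc32a1, the vesicular GABA transporter, had 11.91 and was not detected in fibroblasts. Of 24 glutamatergic cortical genes compared 14 were higher and 0 lower, but 13 of the 24 were detected on the neuron array only and could not be called lower. Mpped1, a cortical metallophosphoesterase, had 13.03, and the layer factor Fezf2 had 10.13, both not detected in fibroblasts. Slc17a6, a vesicular glutamate transporter, had 12.14 in primary neurons against 9.52 in fibroblasts. Of the genes that define dopamine, serotonin and acetylcholine neurons, Th, Slc6a3, Slc18a2, Tph2, Slc6a4 and Chat were detected on neither array. Of 14 genes compared in the list of dopamine and other transmitter systems, 4 were higher (28.6%) and 3 lower (21.4%). Gch1 (11.30 in primary neurons against 9.47 in fibroblasts), Isl1 (10.91 against 8.54), En2 and Otx2 were the higher ones. Ddc, the decarboxylase that completes dopamine synthesis, was lower in primary neurons, at 6.81 against 9.51 in fibroblasts, and Maob and En1 were lower too.

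Some RNA-binding proteins showed where the neuronal and the general members of a family part. Of 23 compared in this list, 10 were at least 2-fold higher (43.5%) and 6 lower (26.1%). Both shares were above the 11.0% and 14.9% of all compared genes. Celf1 was among the lower ones, at 10.09 in primary neurons against 11.46 in fibroblasts. Neuronal Nova2, at 6.83 and not detected in fibroblasts, gave no fold. The neuronal ELAV proteins, which stabilise neuronal messages, were all far apart: Elavl2 had 12.13 in primary neurons against 8.16 in fibroblasts, while Elavl3 (11.07) and Elavl4 (10.69) were not detected in fibroblasts. The ubiquitous Elavl1 had the opposite sign and was under 2-fold, at -0.96. Among the RBFOX splicing factors, Rbfox1 had 11.81 in primary neurons against 8.12 in fibroblasts and Rbfox3, the NeuN antigen, had 10.65 and was not detected in fibroblasts. Rbfox2, which many tissues express, had 10.81 against 10.94. Ptbp1, a splicing repressor whose loss accompanies neuronal differentiation, differed little, with 12.44 in primary neurons against 12.83 in fibroblasts, and its neuronal paralogue Ptbp2 was detected on neither array.

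The same question was put to 46 pairs, each of a gene taken here as neuronal and a paralogue taken as more widely expressed or non-neuronal. The assignment was not tested. Both members were compared in 27 pairs. In 18 of these the neuronal member was at least 2-fold higher, and in 4 of the 18 the other member was higher too, in 11 it differed by less than 2-fold and in 3 it was lower. The 3 opposed pairs were synaptophysin Syp (4.63) with Sypl (-1.42), the transgelins Tagln3 (4.75) with Tagln (-1.71), and the G protein gamma subunits Gng3 (at least 2.89) with Gng12 (at most -2.20). Among the 11 pairs were Camk2b (4.62) with Camk2d (0.17), Rtn1 (4.70) with Rtn4 (0.44), the aldolases Aldoc (3.49) with Aldoa (-0.01), Gnao1 (3.21) with Gnai2 (0.22) and the attachment proteins Napb (3.00) with Napa (-0.60). The 4 pairs with both members higher were Dpysl5 (5.12) with Dpysl3 (1.57), Stmn2 (4.37) with Stmn1 (1.90), Uchl1 (3.38) with Uchl3 (1.21), and the proton pump subunits Atp6v1g2 (2.35) with Atp6v1g1 (1.10). In 3 pairs the neuronal member differed by less than 2-fold while the other was lower, namely Eno2 (0.66) with muscle Eno3 (-2.17), Pgam1 (0.09) with muscle Pgam2 (at most -2.25) and Cdh8 (at least 0.37) with Cdh11 (at most -1.24). In 6 pairs, among them Tubb3 with Tubb6 and Stx1a with Stx4a, both members differed by less than 2-fold or had a bound under it. All these values are differences within 1 probe each and say nothing of which paralogue is the more abundant.

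**Figure D3:**
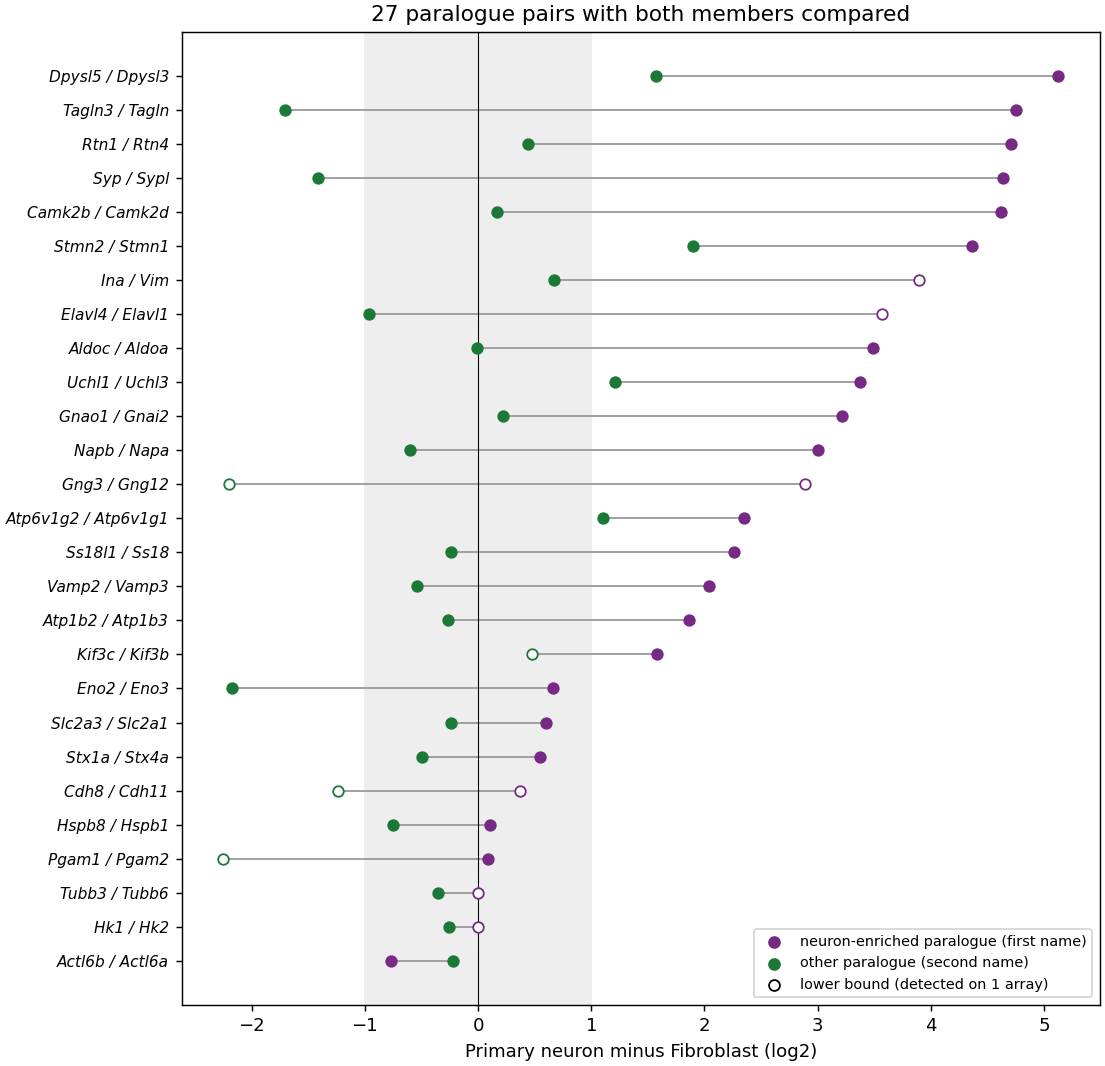
Difference of Primary neuron minus Fibroblast (log2) for both members of 27 paralogue pairs, with the member taken as neuronal in purple, the other member in green and lower bounds as open circles. The shaded band is under 2-fold; Tagln3 with Tagln, Syp with Sypl and Gng3 with Gng12 span it from side to side.

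The chromatin remodelling complex BAF exchanges subunits when neurons leave the cell cycle, and its pairs gave a mixed picture. Ss18l1, the neuronal subunit, had 10.03 in primary neurons against 7.77 in fibroblasts, while Ss18 differed by -0.24. Actl6b, another neuronal subunit, had 6.77 against 7.53 by its brightest probe, a difference of -0.77, but its 3 other detected probes gave 1.35 to 4.56, so that its direction is not settled by these arrays. Over 47 chromatin regulators compared 10 were at least 2-fold higher and 5 lower, and the median of 0.23 changed sign to -0.10 when arrays were scaled on all probes. Chd5, a neuronal remodeller, had 10.17 in primary neurons and was not detected in fibroblasts, and Hmga2, an architectural protein of embryonic and dividing cells, had 6.49 in primary neurons against 8.81 in fibroblasts.

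Components of the axonal cytoskeleton and of transport along it were higher or differed little. Of 23 tubulins and microtubule proteins compared 14 were at least 2-fold higher and 0 lower, and of 29 motor and transport genes 16 were higher and 0 lower. Tuba1a, the alpha tubulin of developing neurons, had 15.61 in primary neurons against 12.86 in fibroblasts. Tubb5 had 15.98 against 15.99, near the top of the scale on both arrays. Tau, encoded by Mapt, had 13.70 against 7.93 by its brightest probe, but 2 other detected probes gave differences of 0.80 and 1.28. Among kinesins, Kif5c had 13.39 in primary neurons against 10.62 in fibroblasts and Kif5a had 10.59 and was not detected in fibroblasts. The dynein light chain Dynll1, which all cells use, had 15.04 against 14.96. Rab6b (12.11) and Ina, a neuronal intermediate filament protein (11.02), were not detected in fibroblasts.

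Genes of transmitter release included some of the widest gaps. Of 47 synaptic vesicle genes compared, 25 were at least 2-fold higher and 2 lower, and 17 were detected on the neuron array only. Cplx1, which clamps and triggers vesicle fusion, had 13.34 in primary neurons and 7.14 in fibroblasts. Cadps, a priming factor of dense-core granules, had 12.16 and 7.31 in the same order. Sh3gl2, an endocytic endophilin, had 12.17 and was not detected in fibroblasts. Clathrin light chain Clta, part of the general coat, had 13.80 in both. Of 26 granule and peptide genes 12 were higher and 6 lower, with granins Scg3 (12.31) and Chgb (9.75) not detected in fibroblasts.

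Syn1, the vesicle tether synapsin, had 12.26 in primary neurons and 8.83 in fibroblasts, and its other detected probe gave 3.28 beside the 3.43 of the first. Celsr3, a cadherin of axon guidance, had 12.14 in primary neurons and was at least 32.4-fold higher. Dner, a neuronal Notch ligand, had 13.24 in primary neurons against 10.63 in fibroblasts. These 3 genes and Scg2, a granin, were those at least 4-fold apart whose promoter window held the letters TTCAGCACC, the left part of the RE1 element that REST binds, on either strand. The motif was in 2 of 138 windows of genes at least 8-fold higher, in 2 of 169 windows of genes 4 to 8-fold higher, in 17 of 5481 windows of genes under 2-fold apart (0.31%), in 0 of the 199 windows of genes at least 4-fold lower and in 0.359% of all 27025 windows. No window of a compared gene held the left part followed, after any 2 bases, by exactly the right part GGACAG, and 3 of all 27025 windows did. Inexact right parts were not searched. At that place Celsr3 reads gggcag, Syn1 ggtcag and Dner ggacaa, each close to GGACAG but not the same. The stretches lie at chr9:108825893-108825951 (plus strand), chrX:20921117-20921168 (minus strand) and chr1:84696338-84696396 (minus strand), 127, 232 and 150 bases before the start, with the motif in capitals.
Celsr3: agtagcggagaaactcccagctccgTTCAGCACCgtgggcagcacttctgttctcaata
Syn1: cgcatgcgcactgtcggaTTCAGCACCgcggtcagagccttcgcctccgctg
Dner: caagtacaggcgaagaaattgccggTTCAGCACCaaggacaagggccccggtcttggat
The match of Scg2 lay after its start and is not shown. With 4 genes the share rests on few windows, and the motif was in none of the other windows of genes at least 4-fold higher. Rest, the gene of the repressor itself, was detected on neither array.

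A second motif was the cAMP response element TGACGTCA, first known from somatostatin. It stood in 4 windows of genes at least 8-fold higher, those of Sst, Sh3gl2, Usp29 and Syn1. In the class 4 to 8-fold higher it stood in 7, among them those of the granins Scg2 and Chgb and of Kif5c, Clstn3 and Cltb. Most of these are not peptide genes. Sst had the largest difference of these, at 5.61. Across size classes, however, it was in 2.90% of windows of genes at least 8-fold higher, 4.14% of those 4 to 8-fold higher, 2.34% of those 2 to 4-fold higher and 3.50% of those under 2-fold apart. On the lower side it was in 20 of 857 windows of genes 2 to 4-fold lower, 7 of 153 of those 4 to 8-fold lower (4.58%) and 0 of 46 of those at least 8-fold lower. These shares moved up and down with no order by size. The stretches of Sst (chr16:23890860-23890917, minus strand) and Scg2 (chr1:79440062-79440119, minus strand) are shown, with the element in capitals 48 and 68 bases before the start.
Sst: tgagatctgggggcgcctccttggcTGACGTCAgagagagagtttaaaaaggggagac
Scg2: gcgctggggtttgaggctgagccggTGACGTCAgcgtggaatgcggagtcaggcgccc
Scg2 itself had 9.91 in primary neurons and was not detected in fibroblasts.

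Many receptor and channel genes gave no comparison. Of 47 transmitter receptor genes with a probe 32 were detected on neither array, and of 44 voltage-gated channel genes 21, beside 8 of the 55 synaptic vesicle genes. Gria2, the AMPA receptor subunit that limits calcium entry, had 12.59 in primary neurons and 7.64 in fibroblasts, and its other detected probe gave 4.35. Glra2, the embryonic glycine receptor subunit, had 11.12 and was not detected in fibroblasts. The NMDA receptor subunits Grin2a and Grin2b were detected on neither array. Of the 23 channel genes compared 8 were at least 2-fold higher and 2 lower. Kcnc1, a fast potassium channel, had 10.60 in primary neurons and was not detected in fibroblasts, and Hcn2, a pacemaker channel, had 9.49 against 7.33. Kcnab1 (8.40 in primary neurons against 11.38 in fibroblasts) and the T-type calcium channel Cacna1g (8.37 against 10.53) were the lower ones. Signalling genes behind the receptors were higher in 21 of 47 cases and lower in 1, with Gnaz (11.24) and Rgs8 (10.38) not detected in fibroblasts and Rgs7 at 11.09 against 7.49.

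Adhesion and guidance genes went both ways, with 26 of 58 compared at least 2-fold higher and 13 lower. Cntnap2 (10.30), Ncan (11.70), Islr2 (11.57) and Chl1 (10.06), which sit on axons or in the matrix around neurons, were not detected in fibroblasts. Nrcam had 12.03 in primary neurons against 8.71 in fibroblasts, and Rtn1 had 14.69 against 9.99. Sema3c, a secreted guidance cue, had 7.22 and 7.33. Growth factor signalling leaned the other way, with 2 of 30 genes higher and 8 lower. Ntrk2, the receptor of brain-derived neurotrophic factor, had 10.55 in primary neurons and was 2.54 higher than in fibroblasts on the log2 scale, while its ligand Bdnf had 10.20 against 11.27, Igf1 had 8.31 against 10.61 and Fgf10 had 7.68 against 10.18. In the Wnt, Notch and hedgehog list 7 of 37 were higher and 13 lower, with Wnt7a (9.56) and Wnt7b (10.44) detected in primary neurons only and Wnt2 (6.77 in primary neurons against 9.84 in fibroblasts), Sfrp2 (8.89 against 12.29) and Jag1 (6.68 against 9.48) lower.

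Marker lists of glia and of other cells of brain tissue were read on both arrays. Of 35 astrocyte and radial glia genes with a probe 24 were detected on the neuron array and 15 on the fibroblast array. The summed level of the list was 128225 in primary neurons against 127572 in fibroblasts. Of 24 compared, 1 was at least 2-fold lower and 6 were higher. Ttyh1 (10.94 in primary neurons against 7.28 in fibroblasts), Aldoc (10.62 against 7.13) and Slc1a3 (13.58 against 11.74) were among them, but Gfap and S100b were detected on neither array and Aqp4 stood at 6.63, near the detection limit. Of 15 oligodendrocyte genes compared 2 were higher and 6 lower. Olig1 had 12.39 in primary neurons against 8.77 in fibroblasts, and Olig2, Mog and Mag were detected on neither. Ttr, the transthyretin of choroid plexus, had 12.88 and was at least 53.7-fold higher, while Folr1, Kl and Foxj1 were detected on neither. Haemoglobin Hba-a1 had 11.24 in primary neurons and Hbb-bt had 8.44, and neither was detected in fibroblasts. The part of such cells in the other results was not tested.

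Markers of immune and vessel cells were mostly lower or close on the neuron array. Of 31 microglia and macrophage genes 18 were detected on each, with a summed level of 31147 in primary neurons and 37069 in fibroblasts. Of 20 compared 1 was at least 2-fold higher and 8 lower, and Ptprc, Itgam and P2ry12 were detected on neither. Tmem119 was lower, at 8.02 against 11.46, and it is also known from bone and connective tissue cells. Of 20 endothelial, pericyte and meningeal genes 0 were higher and 12 lower, with Flt1 at 9.49 in primary neurons against 12.35 in fibroblasts and Emcn not detected in primary neurons and at 10.41 in fibroblasts, while Pecam1, Cdh5 and Kdr were detected on neither.

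Innate immune genes differed in the other direction from these markers. Of 48 interferon-stimulated genes compared, 23 were at least 2-fold higher in primary neurons and 2 lower. Ifit3, an antiviral protein, had 14.81 in primary neurons against 8.48 in fibroblasts, and its 2 other probes gave 5.88 and 6.06. Gbp3, a guanylate-binding protein, had 13.02 against 9.22, and Igtp, an immunity GTPase, had 12.05 against 9.36. Ifnb1 itself stood at 6.36 on the neuron array and was not detected in fibroblasts, which gives no fold. The core of the interferon-stimulated response element, GAAACTGAA, was searched on both strands. It was in 4 of 138 windows of genes at least 8-fold higher (2.90%) and in 4 of 169 of those 4 to 8-fold higher (2.37%). It was in 6 of 470 windows of genes 2 to 4-fold higher (1.28%). Among genes under 2-fold apart it was in 0.383%, against 0.629% of all 27025 windows. On the lower side it was in 3 of 857 windows of genes 2 to 4-fold lower, in 2 of 153 windows of genes 4 to 8-fold lower (1.31%) and in 0 of 46 windows of genes at least 8-fold lower. The stretches of Ifit3 (chr19:34583383-34583441), Gbp3 (chr3:142559975-142560033) and Igtp (chr11:58199497-58199555), all on the plus strand, are shown because they hold it 121, 44 and 34 bases before the start, in capitals. In Ifit3 and Gbp3 it reads on the opposite strand.
Ifit3: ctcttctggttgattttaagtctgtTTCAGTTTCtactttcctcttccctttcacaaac
Gbp3: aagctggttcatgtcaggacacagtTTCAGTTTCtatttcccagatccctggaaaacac
Igtp: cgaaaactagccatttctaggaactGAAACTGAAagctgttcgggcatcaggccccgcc
Genes with this motif were not all immune genes, since the neuronal membrane proteins Nsg2 and Gpm6a held it too. The 4 genes at least 8-fold higher that held it were Ifit3, Gbp3, Nsg2 and Gpm6a, so these shares rest on few windows.

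Other innate immune lists leaned the same way. In the NF-kB list 12 of 28 genes were at least 2-fold higher and 1 lower. The feedback inhibitors Nfkbia (11.43 in primary neurons against 8.35 in fibroblasts) and Tnfaip3 (11.09 against 8.46) were higher, while the subunit Rela had 12.18 in both. Tlr4, the receptor for bacterial lipopolysaccharide, was the lower one, at 6.67 against 8.54. Of 41 chemokine and cytokine genes 17 were higher and 6 lower. Cxcl10, an interferon-induced chemokine, had 13.37 in primary neurons and was not detected in fibroblasts, a difference of at least 6.24 and the widest bound of any gene detected on the neuron array only. Cxcl1 had 15.20 in primary neurons against 9.42 in fibroblasts, and Cxcl12, a constitutive stromal chemokine, had 11.33 against 13.71. Of 17 complement and acute phase genes compared 4 were higher, 1 was lower and 12 were neither, and another 20 with a probe were detected on neither array. Saa3, an acute phase protein with the widest difference of that list, had 12.88 and was not detected in fibroblasts. Serping1 was the lower one, at 9.37 against 10.71. Of 27 antigen presentation and proteasome genes 6 were higher and 1 lower, with the immunoproteasome subunit Psmb9 at 10.12 and not detected in fibroblasts, and the class I gene H2-K1 lower, at 9.03 against 10.04.

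Genes of the extracellular matrix and of the machinery that makes it were largely lower in primary neurons. Of 23 collagen genes compared 19 were at least 2-fold lower in primary neurons and 0 higher. Col1a2 had 9.06 in primary neurons against 11.35 in fibroblasts, Col5a2 had 8.54 against 11.52, and Col15a1 was not detected in primary neurons and had 10.25 in fibroblasts. Col18a1 did not follow, at 13.39 against 13.40. Of 23 genes that hydroxylate, fold or crosslink collagen 18 were lower and 0 higher. P4ha1, a catalytic subunit of the prolyl hydroxylase, had 6.95 against 10.33. Plod2, a lysyl hydroxylase, had 9.48 against 12.37. The collagen chaperone Serpinh1 had 11.96 against 13.83. Of 45 genes of elastic fibres, proteoglycans and matrix glycoproteins 31 were lower and 0 higher, led by elastin, Eln, at 8.18 in primary neurons against 13.42 in fibroblasts, a 37.9-fold difference. Sparc had 14.75 against 15.06 and Agrn 14.62 against 14.35, both under 2-fold.

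The cell's grip on the matrix and its contractile fibres were lower in part. Of 30 integrin and focal adhesion genes 14 were at least 2-fold lower and 0 higher. Itga11, the alpha subunit of a collagen receptor, had 9.75 in primary neurons against 14.04 in fibroblasts, and its other detected probe gave -4.59. Csrp3, a muscle LIM protein, was not detected in primary neurons and had 9.43 in fibroblasts. Of 29 smooth muscle and contractile genes 11 were lower and 2 higher. Mylk had 6.77 against 10.89, Actg2 had 13.24 against 15.25 and Myh11 was not detected in primary neurons and had 10.05 in fibroblasts, whereas Acta2 had 16.05 against 16.06, near the top of the scale on both arrays. Matrix proteases and inhibitors were divided, with 5 of 33 higher, including Mmp24 (11.51, not detected in fibroblasts) and Mmp3 (11.48 against 8.72), and 15 lower, including Adamts5 (8.79 against 11.22). Of the TGF-beta, BMP and activin genes 2 of 34 were higher (5.88%) and 6 lower (17.6%), the latter close to the 14.9% of all compared genes. Bmp4 was lower, at 10.32 against 12.90. Acvr2b (11.18 against 9.38) and Id2 (10.94 against 9.71) were the higher ones.

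Secretion and lipid synthesis followed the matrix genes to a smaller extent. Of 40 genes of the secretory pathway 13 were at least 2-fold lower and 2 higher, with a median of -0.66. Creb3l2, a transcription factor of collagen-secreting cells, had 9.01 in primary neurons against 11.43 in fibroblasts, Sec24d, a coat protein of export vesicles, had 9.95 against 11.85, and the chaperone Hspa5 had 8.92 against 10.33. Of 38 cholesterol and fatty acid genes 13 were lower and 1 higher. Scd1, which makes monounsaturated fatty acids, had 11.58 against 13.77, and Srebf1 had 6.58 against 8.61, while Hmgcs1 had 15.63 against 15.72. Elovl2, which elongates long polyunsaturated fatty acids, was the higher one, at 8.85 in primary neurons and not detected in fibroblasts. Of 31 lysosomal genes 10 were lower and 0 higher, with cathepsin Ctsk at 9.90 against 11.67.

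Housekeeping programmes stayed close. Of 55 oxidative phosphorylation genes 2 were at least 2-fold higher and 0 lower, and their median of 0.36 became -0.11 when arrays were scaled on all probes. Of 40 ribosomal protein genes 2 were higher and 1 lower, with a median of 0.14 that became -0.45 under that scaling and -0.23 when scaled on probes detected on all arrays. Small shifts of such lists therefore have no settled direction. Cell cycle genes were lower in 9 of 44 cases and higher in 0, by modest amounts: Cdc6 had 9.05 in primary neurons against 10.55 in fibroblasts and Bub1b had 9.03 against 10.46, but Cdk1 had 11.14 against 11.17. Cell cycle transcripts were thus present on both arrays. Of 26 genes of cell cycle inhibition and the p53 response 2 were higher (7.69%) and 3 lower, shares under those of all compared genes. Ccng2 (10.77 in primary neurons against 7.18 in fibroblasts) and Cdkn2a (9.85, not detected in fibroblasts) were higher, and Cdkn1c (12.89 against 15.03), Cdkn2b (10.67 against 11.85) and the growth arrest gene Gas2 (6.38 against 9.11) were lower. Of 53 energy metabolism genes 8 were higher (15.1%) and 6 lower (11.3%), close to the shares of all compared genes. The brain creatine kinase Ckb had 15.95 in primary neurons against 14.06 in fibroblasts, and the coactivator Ppargc1a had 9.15 and was not detected in fibroblasts. The muscle subunit Cox6a2 had 7.70 against 9.54, and Pdk4, a kinase that inhibits pyruvate dehydrogenase, had 6.90 against 9.14. Nqo1, a quinone reductase of the oxidative stress response, had 10.48 in primary neurons and was 2.89 higher than in fibroblasts.

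**Figure D4:**
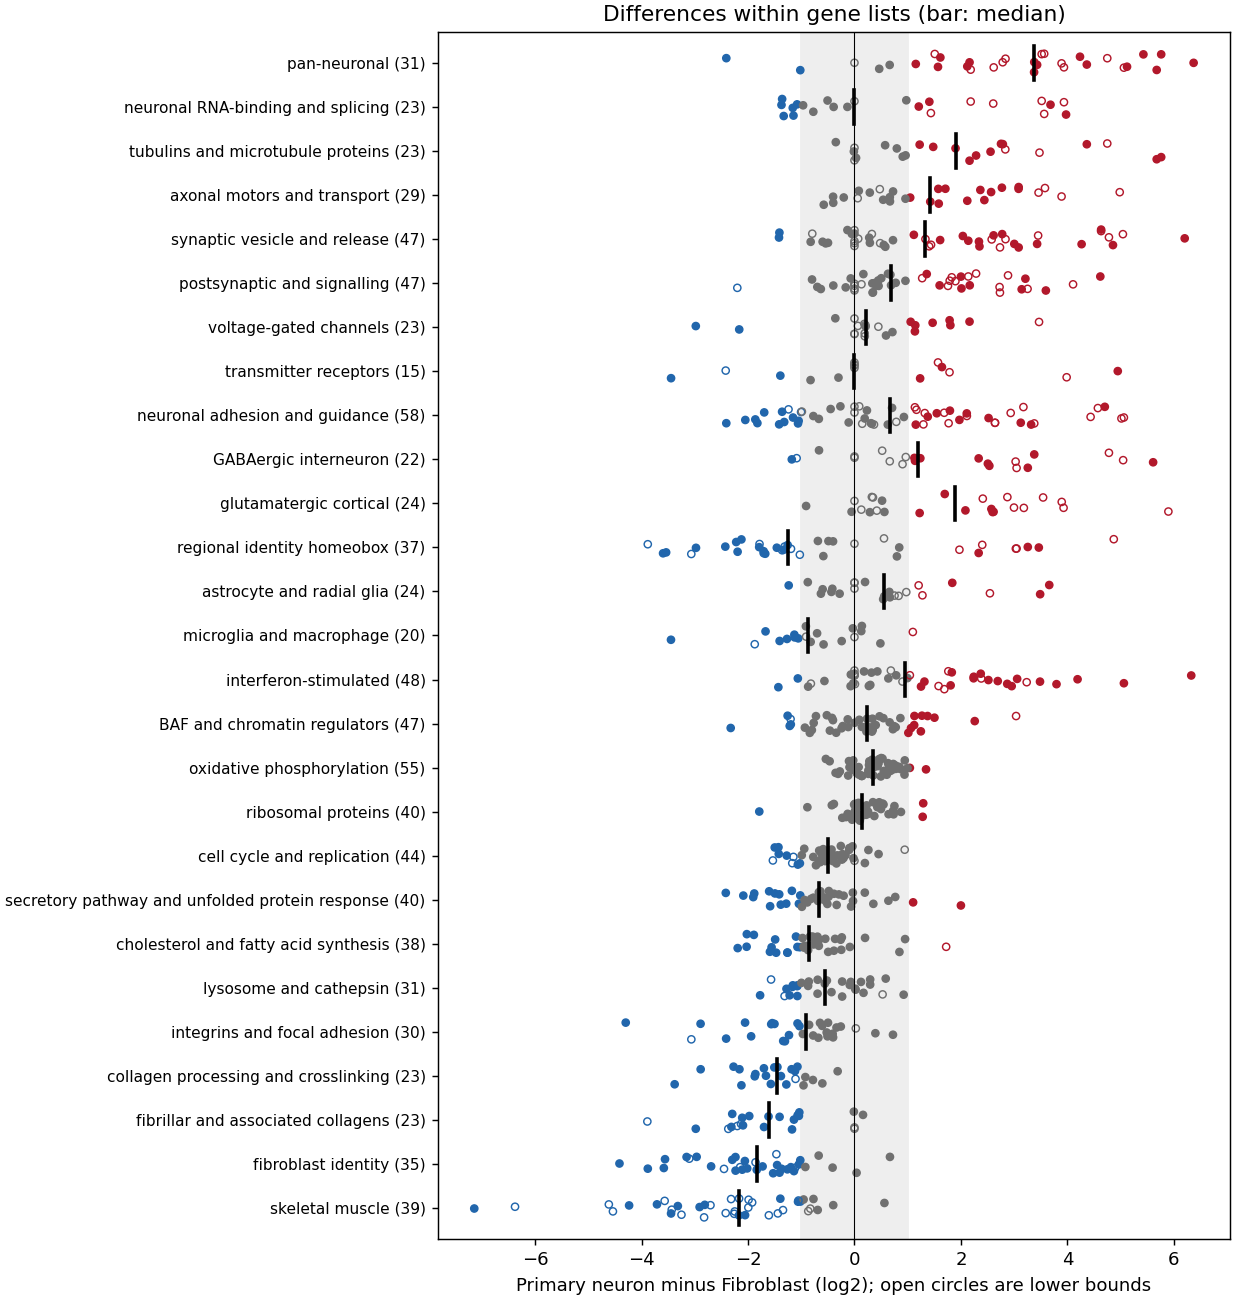
Difference of Primary neuron minus Fibroblast (log2) for each compared member of 27 gene lists, with the number compared in brackets, the list median as a black bar, bounds as open circles and the band under 2-fold shaded. Points at 2-fold or more are red (higher) or blue (lower); pan-neuronal genes have a median of 3.38 and skeletal muscle genes one of -2.17.

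Imprinted genes, which are expressed from the allele of 1 parent and often control growth, did not share a direction, with 6 of 20 compared at least 2-fold higher and 7 lower. Snrpn, a splicing protein of neurons, had 14.74 in primary neurons against 12.19 in fibroblasts, and Nnat (11.26) and Usp29 (11.11) were not detected in fibroblasts. On the lower side, Dlk1, a Notch-related inhibitor of differentiation, had 9.12 against 12.84, Igf2r had 11.20 against 13.61 and Grb10 had 14.30 against 15.73. Igf2 had 15.93 against 16.03, near the top of the scale on both arrays. Xist, the RNA of the inactive X chromosome, had 8.47 in primary neurons and 9.30 in fibroblasts, and the Y-linked Kdm5d had 6.88 and 8.99, so that Xist and a Y-linked transcript were detected on both arrays. Uty, also Y-linked, was not detected in primary neurons and had 7.48 in fibroblasts.

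Several smaller lists completed the comparison. Of 11 Schwann cell and neural crest genes compared 2 were at least 2-fold higher and 5 lower, with the crest factors Snai1 (9.89 in primary neurons against 11.35 in fibroblasts) and Tfap2a (7.31 against 9.25) on the lower side. Of 8 keratinocyte and epithelial genes 0 were higher and 4 lower, among them Krt14, not detected in primary neurons and at 8.65 in fibroblasts. Of 24 heat shock genes 1 was higher and 3 lower. The higher one was Dnajc6, the neuronal auxilin that uncoats clathrin vesicles, at 12.26 in primary neurons and not detected in fibroblasts. The constitutive Hspa8 had 16.01 against 16.02, near the top of the scale on both arrays. Of 30 immediate early genes 2 were higher and 4 lower, with Mycl at 11.98 against 9.27 and Egr2 at 8.75 against 10.48. Of 36 caveolar and annexin genes 1 was higher and 8 lower, with Ahnak at 11.99 against 13.76 and Anxa5 at 13.84 against 15.17. These counts, like the others, are read against the 11.0% and 14.9% of all compared genes.

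The compared genes also differed in features that are not expression. Of 227 genes longer than 300 kb in the reference annotation 68 were at least 2-fold higher in primary neurons and 43 lower (18.9%). Of 895 genes of 100 to 300 kb 15.2% were higher and 21.8% lower. Of 2440 genes of 30 to 100 kb 8.93% were higher and 16.7% lower, of 3044 genes of 10 to 30 kb 8.94% and 13.4%, and of 2377 genes under 10 kb 12.5% were higher and 11.8% lower. The longest genes were thus the class with the greatest share of higher calls, while the share of lower calls was greatest in the class below it. Genes over 100 kb made up 24.3% of those at least 8-fold higher and 10.2% of those under 2-fold apart. Their share was 24.9% at 4 to 8-fold higher and 17.9% at 2 to 4-fold higher. On the lower side it was 13.3% at 8-fold or more, 21.7% at 4 to 8-fold and 17.3% at 2 to 4-fold.

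Promoters of the genes that separated the cells held fewer CpG dinucleotides. The median ratio of observed to expected CpG was 0.79 over 5481 windows of genes under 2-fold apart. It was 0.64 for genes at least 8-fold higher and 0.41 for the 46 genes at least 8-fold lower. The TATA box TATAAA, on either strand, was in 23.9% of the 46 windows of genes at least 8-fold lower, among them Actc1 and Acta1, against 9.42% of the 138 windows of genes at least 8-fold higher, 6.81% of those under 2-fold apart and 14.2% of all windows. The class with the lowest CpG ratio therefore also held this motif most often, and it rests on 46 windows.

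**Figure D5:**
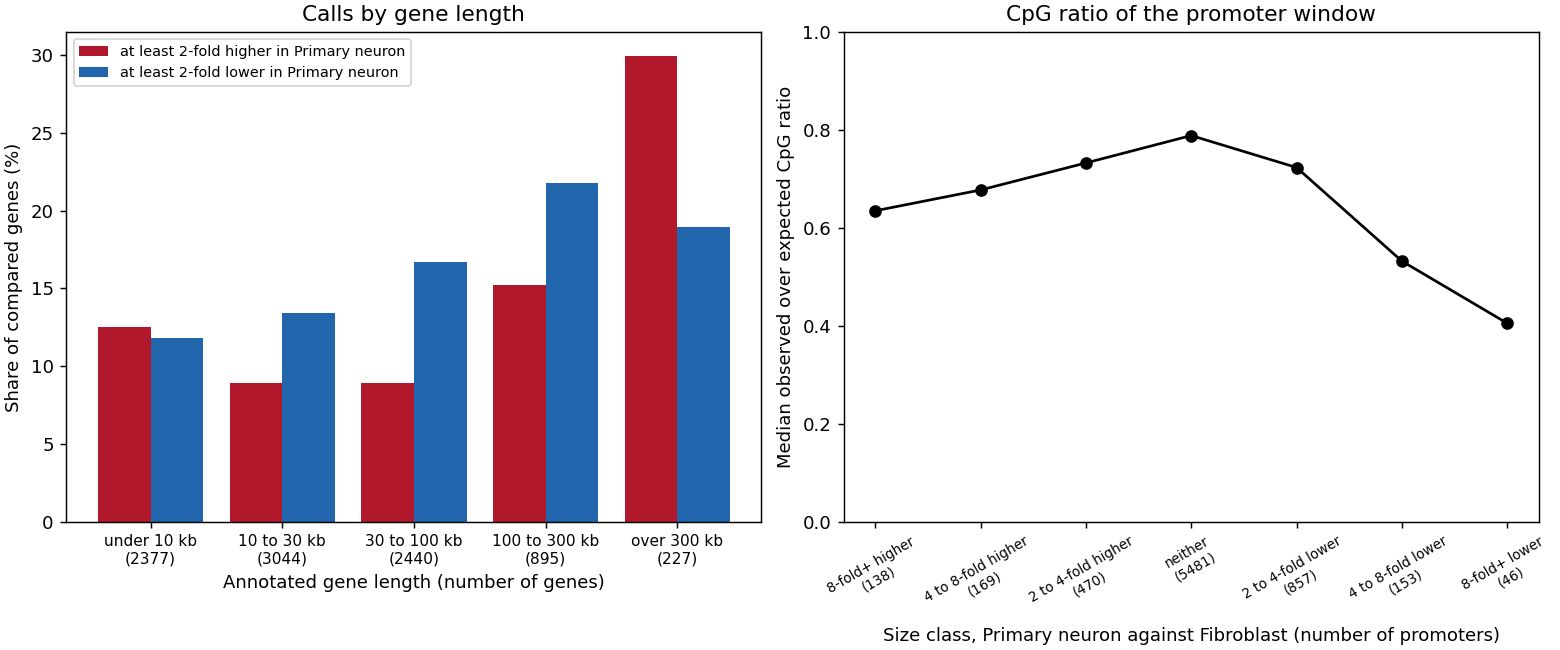
Left, share of compared genes at least 2-fold higher (red) or lower (blue) in primary neurons by annotated gene length, with the number of genes in brackets; right, median ratio of observed to expected CpG in the promoter window by size of the difference, with the number of windows in brackets. Genes over 300 kb have the highest share of higher calls (68 of 227), and the CpG ratio is highest (0.79) for genes under 2-fold apart.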

How the data were processed

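Total RNA, 0.55 ug per array per the labels, was hybridised to 4 BeadChip arrays, 1 a group. The deposited non-normalized table holds a linear probe intensity and a detection p-value in steps of 1 in 798; the submitters' processing notes name GenomeStudio 2011.1. The authors' deposited log2 values equal quantile-normalized log2 intensity without background correction to within 5e-07, and their software setting for background is not given in the sources used here. From the deposited intensity, neqc of limma 3.58.1 in R 4.3.3 (normexp background from controls inferred from the detection p-values, offset 16, quantile normalization of the 4 arrays together) gave the levels. A gene is its probe with the highest mean over the 4 arrays. Of 25697 probes 23978 named 1 gene, 0 more than 1 gene and 1719 no gene, and 23962 matched the reference by gene identifier. Genes 2-fold or more apart were called higher or lower, and bounds that crossed to the other side of 0 on the log2 scale were set to a difference of 0. Genes are named by a rule: each way, the 12 most different genes detected on both arrays and the 10 with the widest bounds, in each of 56 gene lists (2366 genes, 2076 with a probe, 1471 compared) the 10 largest and the 4 smallest differences, both members of each pair, and all reprogramming, erythroid and sex-linked genes. Names outside it (Ncam1, Mylpf, Irx2, Irx5, Meis1 and the genes named as detected on neither array) were chosen after their values were seen, as were the promoter stretches shown. The comparison, its lists and pairs were chosen with earlier results of these data known. Promoters are RefSeq windows of GRCm38.p6, and 7314 of the compared genes had one. The number of arrays limits the precision. Tried as alternatives were scaling in place of quantile normalization, no background correction, normexp at offset 50, the 2 arrays normalized alone, the authors' log2 values, a looser detection p of 0.05, only genes detected on both arrays, no filter, averaging the probes of a gene, and a 3-fold threshold; scaling on the probes detected on all arrays was added after seeing the data. The steps were tested on simulated data. Value columns that belong to no sample numbered 0. Python 3.11.15, numpy 2.4.6, pandas 2.3.3 and matplotlib 3.10.9 did the rest.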

Additional observations from a re-analysis of the deposited data

How the results depend on the processing

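Each group has 1 array, so no alternative has a replicate check. No paired analysis was possible because every group has 1 array and the result comes from no test. The 991 higher and 1337 lower genes became 800 and 872 without background correction, and also 800 and 872 with the authors' deposited log2 values, a count of lower genes more than 1.5-fold smaller. A 3-fold threshold gave 556 and 485. Under the other alternatives both counts stayed within 1.5-fold: 851 and 972 with normexp at an offset of 50, 928 and 1592 with scaling on all probes, 1183 and 1091 with scaling on probes detected on all arrays, 973 and 1316 with the 2 arrays normalized alone, 1141 and 1451 at a detection p under 0.05, 662 and 1145 with detection on both arrays, 1381 and 1555 without a filter, and 871 and 1098 with the mean of a gene's probes. Of 727 named genes, 167 moved by over 1.5-fold without background correction, 30 under scaling on all probes and 93 with the mean of probes. Genes detected on 1 array have only bounds.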
